A study of Homo sapiens with 30 samples.

Results

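This account compares the second day of a directed cardiac differentiation (D2) with the first (D1) in H7, an established human embryonic stem cell line, as measured by RNA sequencing. The 4 libraries of D1 and D2, 2 of each, are part of 30 libraries in 15 groups, which cover 11 time points and 4 sorted populations. Per the labels' protocols, all cells came from passage 60, and stem cell medium was exchanged on D1 for RPMI1640 with B27 minus insulin and 12 µM CHIR99021, an inhibitor of the kinase GSK3 that switches on WNT signalling, for 24 hours. Then followed 2 days in the same base with 5 µM IWP4, an inhibitor of WNT secretion, and after that RPMI1640 with B27. Undifferentiated cells (hESC) and later days serve below to place D1 and D2 in the course. The labels do not say at which hour of a day cells were taken, whether D1 cells were collected before or after CHIR99021 was removed, or whether the 2 libraries of a day came from separate cultures. D1 and D2 share the line and the base medium, whether D2 cells alone had met IWP4 is not stated, and 1 line limits what they stand for.

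The deposited time-course table gives 1 FPKM value (fragments per kilobase of transcript, scaled to the fragments of the library) per gene and time point, and the libraries of one day cannot be told from each other there. Neither a spread nor a test can be set beside a difference, and "higher" and "lower" below describe the authors' values of these pooled libraries. Differences are D2 minus D1 on the log2(FPKM + 1) scale, where 1 is 2-fold and changes of low genes are understated. Of 41495 entries, 10925 had at least 5 FPKM at D1 or D2. A gene was counted when the difference was at least 1 in size, and was set aside when its D3 value lay within 0.5 of its D1 value. This left 279 genes higher (2.55% of those kept) and 316 lower at D2 (2.89%), 595 in all, with 148 set aside (1.35%). Among the 9922 protein-coding genes kept, 207 were higher (2.09%), 202 lower (2.04%) and 81 set aside (0.816%). The median difference was -0.09 over all kept genes and -0.09 over the protein-coding ones. The shares over all kept genes are the ones to set beside the list counts below. In many lists some members were under 5 FPKM on 1 day and kept only through the other, so the filter helps set those counts.

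The 3 genes named as marks of nascent mesoderm were all higher at D2. APLNR, which early mesoderm uses to bind apelin peptides, was at 0.308 FPKM in hESC, 6.70 at D1, 180 at D2 and 65.2 at D3. PDGFRA, a receptor kept by paraxial and cardiac mesoderm, went from 1.55 at D1 to 19.5 at D2 and on to 43.0 at D3 and 141 at D4. MESP1, a transcription factor of the first mesoderm cells to leave the streak, was at 0.733 FPKM at D1 and 12.5 at D2, and back at 3.70 at D3 and 0.748 at D4. The 3 markers thus share low D1 values and part afterwards: MESP1 is a D2 peak, while PDGFRA was higher on each day up to D6. In bulk samples, more cells of a type and more RNA per cell cannot be told apart, here or in any difference that follows.

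As background, gastrulation begins when epithelial cells of the epiblast enter the primitive streak under WNT and NODAL signals, expressing the T-box factors brachyury (T) and EOMES. Cells that leave the streak lose epithelial junctions under SNAI and ZEB factors, migrate through a matrix rich in hyaluronan, and turn on MESP factors as nascent mesoderm. NODAL and BMP levels and the position along the streak are known to steer them to endoderm, cardiac or paraxial mesoderm.

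**Figure D1:**
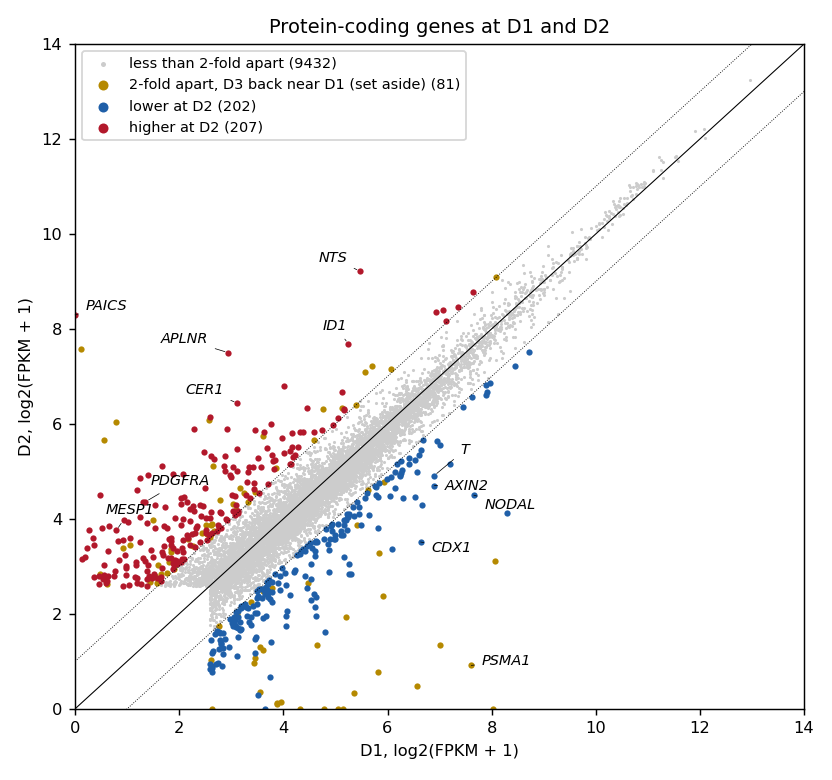
Each point is a protein-coding gene with at least 5 FPKM at D1 or D2, with its D1 value on the x axis and its D2 value on the y axis, both as log2(FPKM + 1); dotted lines mark 2-fold. The 207 higher genes lie above and the 202 lower genes below the band of the other genes, and the 81 genes whose D3 value was back near D1 are marked as set aside.

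Short promoter stretches of 6 genes are printed because they hold letters of motifs for the pathways that the values below concern. For each, the 250 bases before the annotated start are given 5′ to 3′ on the gene's strand, from RefSeq on build GRCh38.p14, not the build of the expression values. Capitals mark matches on either strand to 6 motifs. For the TCF/LEF factors of WNT signalling the letters searched were CTTTGAA and the same with a final T in place of the final A. For T-box factors they were AGGTGTGA, AGGTGTTA or AGGTGTCA, and for FOXH1 of the NODAL pathway AATCCACA or AATACACA. Blood and heart factors of the GATA family were searched as AGATAA. The E-box of SNAI and ZEB factors was CAGGTG, and the octamer of POU5F1 was ATGCAAAT or ATGCTAAT. The first letters of the T-box motifs can overlap an E-box, so 1 run of capitals may hold both. T, CDX2 and DKK1 are WNT target genes, MIXL1 is a homeobox factor of the streak, MESP2 is the neighbour and relative of MESP1, and CRB3 is an apical polarity protein of epithelia.
The windows lie upstream of the genes, that of T at chr6:166167852-166168101 (minus strand), CDX2 at chr13:27969316-27969565 (minus strand), DKK1 at chr10:52314031-52314280 (plus strand), MIXL1 at chr1:226223414-226223663 (plus strand), MESP2 at chr15:89776082-89776331 (plus strand) and CRB3 at chr19:6464021-6464270 (plus strand). T has a further annotated start, whose window held none of these letters.
T: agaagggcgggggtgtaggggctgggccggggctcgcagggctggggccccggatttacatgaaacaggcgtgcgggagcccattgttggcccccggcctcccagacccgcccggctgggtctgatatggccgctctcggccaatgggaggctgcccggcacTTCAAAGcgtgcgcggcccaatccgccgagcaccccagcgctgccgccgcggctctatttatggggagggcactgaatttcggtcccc
CDX2: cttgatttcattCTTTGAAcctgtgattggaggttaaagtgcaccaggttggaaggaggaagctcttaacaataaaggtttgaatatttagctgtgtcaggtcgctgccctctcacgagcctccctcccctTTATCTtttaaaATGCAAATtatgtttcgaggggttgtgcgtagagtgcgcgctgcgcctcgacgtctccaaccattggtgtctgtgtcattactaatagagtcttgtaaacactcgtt
DKK1: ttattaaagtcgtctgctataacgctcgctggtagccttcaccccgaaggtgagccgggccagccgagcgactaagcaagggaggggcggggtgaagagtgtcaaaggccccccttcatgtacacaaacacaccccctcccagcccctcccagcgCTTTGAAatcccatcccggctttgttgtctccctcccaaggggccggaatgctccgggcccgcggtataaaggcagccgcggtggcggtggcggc
MIXL1: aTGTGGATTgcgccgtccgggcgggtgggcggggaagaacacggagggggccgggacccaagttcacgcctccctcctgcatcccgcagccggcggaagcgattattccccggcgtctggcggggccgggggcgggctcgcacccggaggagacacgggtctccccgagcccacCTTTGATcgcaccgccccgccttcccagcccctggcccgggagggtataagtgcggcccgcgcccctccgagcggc
MESP2: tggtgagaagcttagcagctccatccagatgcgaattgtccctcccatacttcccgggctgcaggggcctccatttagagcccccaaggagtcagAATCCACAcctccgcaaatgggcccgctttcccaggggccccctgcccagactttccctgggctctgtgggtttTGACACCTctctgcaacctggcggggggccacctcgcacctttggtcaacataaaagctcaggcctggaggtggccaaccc
CRB3: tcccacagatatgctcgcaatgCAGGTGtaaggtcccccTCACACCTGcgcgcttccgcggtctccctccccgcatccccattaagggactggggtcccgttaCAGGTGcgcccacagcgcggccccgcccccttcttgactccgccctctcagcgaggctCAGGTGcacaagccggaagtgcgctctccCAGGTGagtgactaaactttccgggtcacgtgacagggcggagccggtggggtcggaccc

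In these windows T had a TCF/LEF match at -88 to -82 from the start, CDX2 at -238 to -232, DKK1 at -95 to -89 and MIXL1 at -76 to -70. MIXL1 also held a FOXH1 match at -249 to -242. MESP2 had a T-box match at -81 to -74 and a FOXH1 match at -155 to -148. CRB3 carried 5 E-box matches, of which the one at -208 to -203 overlaps a T-box match. A match is a string of letters and no evidence of binding. TCF/LEF letters occurred in 5.94% of 35116 windows of the whole table, in 3.63% of 11750 windows of kept protein-coding genes, in 4.89% of 266 windows of genes higher at D2 and in 6.70% of 224 windows of genes lower at D2. T-box letters occurred in 1.85%, 1.23%, 1.88% and 0.893% of the same windows. The E-box was in 17.5% of all windows, 15.1% of those of kept genes, 14.3% of those of higher genes and 28.6% of those of lower genes. FOXH1 letters were in 1.37%, 0.681%, 1.5% and 1.79%, which rest on 4 windows each in the higher and lower genes. Of the 7 lower WNT target genes (AXIN2, CDX1, CDX2, DKK1, NKD1, RNF43 and T), 4 were in the table, with 6 windows, of which 3 held TCF/LEF letters. A gene can have several windows, which share sequence, and 157 of the 207 higher and 142 of the 202 lower genes were in the table.

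Most WNT target genes had a D2 value under that of D1, but for many the difference was short of 2-fold. Of 18 target and feedback genes kept, 7 were lower, against 2.89% of all kept genes, 1 was higher and 17 lay below 0, with a median of -0.86. AXIN2, the scaffold of the complex that degrades beta-catenin, stood at 4.22 FPKM in hESC, 118 at D1 and 25.01 at D2 (difference -2.20). CDX1, a homeobox gene of the posterior streak, went from 98.4 to 10.4 (-3.12), and its relative CDX2 from 34.6 to 8.17 (-1.96). NKD1, which restrains Dishevelled, went from 90.7 to 21.0, and RNF43, which removes WNT receptors from the membrane, from 22.2 to 3.86. These 5 genes share a path: low in hESC except RNF43 (15.3 FPKM), a D1 peak, and a D2 value well under it. DKK1, a secreted WNT antagonist, was lower but still high, with 239 FPKM at D1, 101 at D2 and 89.5 at D3. LEF1, the nuclear partner of beta-catenin, was at 58.2, 32.6 and 66.1 on these days (-0.82 at D2), and SP5 at 133 and 72.0 (-0.87), short of 2-fold. LGR5, a receptor for R-spondins, ran the other way, with 1.24 FPKM at D1, 7.16 at D2 and 17.4 at D3. LGR5 passed the minimum through its D2 value alone, and RNF43 through its D1 value alone.

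The WNT ligands of the 2 days differed. WNT5B was at 147 FPKM at D1 and 34.5 at D2 (-2.06), the 1 ligand of the 8 kept that was lower. WNT8A, a canonical ligand of the streak, was at 3.85 and 58.0, WNT3A at 4.04 and 13.4, and WNT5A, which signals through ROR2 without beta-catenin, at 2.20 and 33.7. RSPO3, a secreted enhancer of WNT reception, was at 2.77 and 15.2. WNT8A, WNT3A, WNT5A and RSPO3 were thus higher, 4 of 8 kept, against 2.55% of all kept genes. All 4 passed the minimum through their D2 value alone, so the filter helps set this count. Another 17 of the 25 listed stayed under 5 FPKM on both days. The 4 higher ligands differ in what came next: WNT5A was still at 31.7 FPKM at D3 and 17.7 at D4, WNT3A was down to 2.04 at D3. Of 14 WNT receptors and polarity genes kept, ROR2 alone was 2-fold higher, at 9.66 and 32.9 FPKM, and none was lower. FZD2 (difference 0.97) and FZD7 (0.89) were close to the 2-fold line, while LRP6 (0.22) and PTK7 (0.22) were far from it. Among 10 antagonists, SFRP1 (5.38 and 37.6), SHISA2 (0.685 and 5.96), DKK3 (5.14 and 16.7) and TMEM88 (3.99 and 12.9) were higher and DKK1 was lower. SHISA2 and TMEM88 passed the minimum through their D2 value alone. SFRP1, SHISA2 and TMEM88 had all been higher in hESC (119, 16.8 and 7.01 FPKM) than at D1.

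The streak factors split. Of 11 kept, 4 were lower, against 2.89% of all kept genes, and 3 were higher, against 2.55%. Another 1 was set aside, and the median was -0.83. T stood at 0.0936 FPKM in hESC, 118 at D1, 28.99 at D2 and 4.76 at D3 (-1.99). MIXL1 went from 251 to 115 (-1.12) and EVX1, a posterior streak homeobox gene, from 23.5 to 8.32 (-1.40). EOMES did not follow T: it was at 47.0 FPKM at D1, 63.9 at D2 and 15.1 at D3, a difference of 0.44. GATA6 (2.28 and 13.4), MSX2 (2.70 and 9.39) and LHX1 (0.777 and 10.6) were higher, the last with the column pattern described further on. All 3 passed the minimum through their D2 value alone, so the filter helps set the count of higher genes. FOXA2, a factor of the anterior streak and endoderm, was at 13.2 and 7.22 (-0.79). OTX2, an anterior factor, was among the genes set aside, at 23.8 FPKM in hESC, 5.24 at D1, 33.8 at D2 and 6.60 at D3.

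NODAL itself had the fifth largest decrease among protein-coding genes that were not set aside. The ligand was at 0.472 FPKM in hESC, 201 at D1, 21.6 at D2 and 2.65 at D3 (-3.16). FOXH1, the DNA-binding partner of SMAD2 and SMAD3, went from 62.5 to 27.5 (-1.16). CER1, a secreted NODAL and BMP inhibitor and itself a NODAL target, ran opposite, from 7.68 to 85.7 (3.32) before 22.4 at D3 and 1.28 at D4. The rest of the 15 pathway genes kept lay within 2-fold, among them the co-receptor TDGF1 (238 and 197), the inhibitors LEFTY1 (11.9 and 6.17) and FST (241 and 124), and SMAD2 (79.7 and 62.7). The list median was -0.02.

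**Figure D2:**
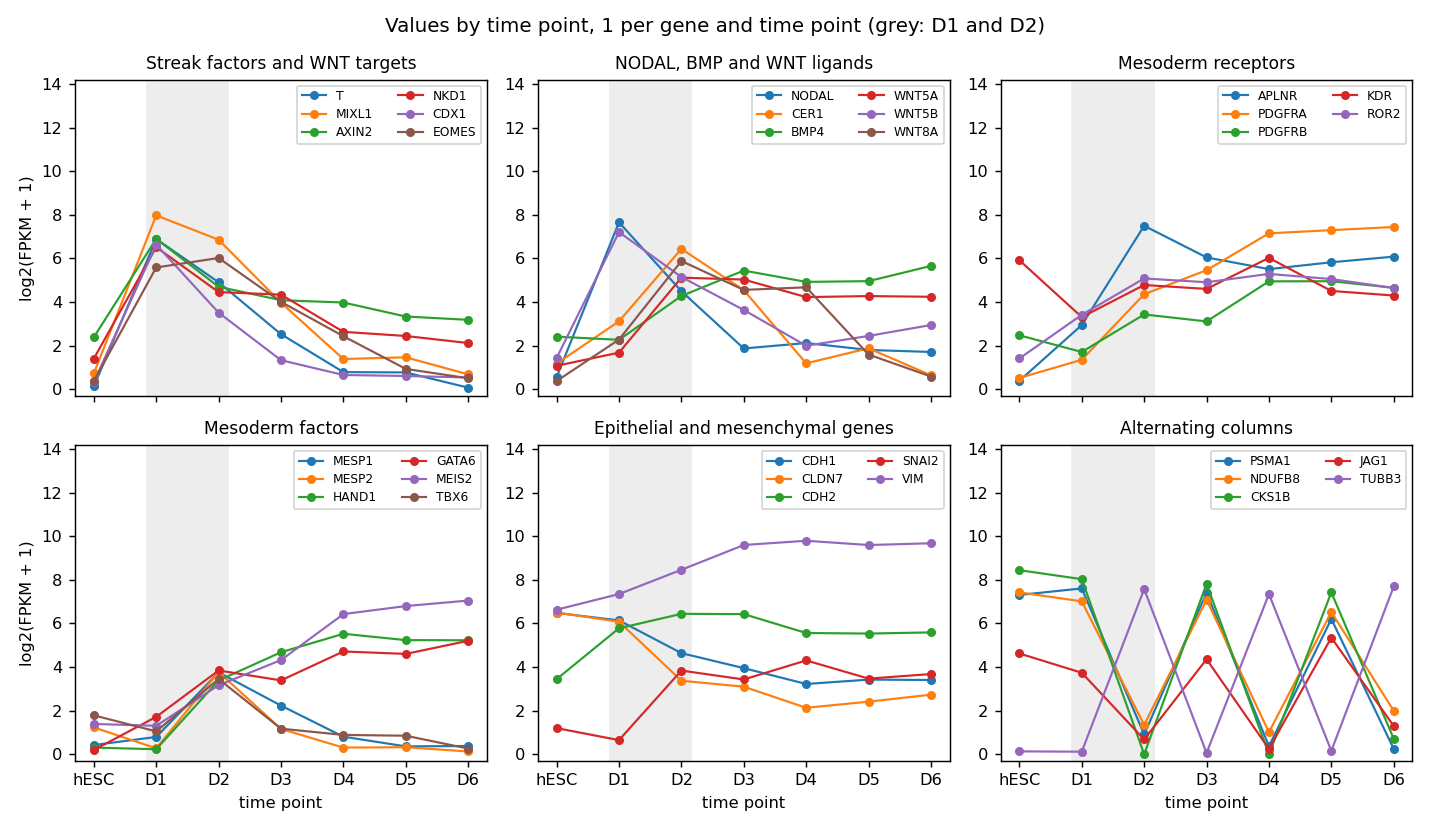
Lines show log2(FPKM + 1) of named genes at 7 time points from hESC to D6, 1 value per gene and time point, with D1 and D2 shaded. T, AXIN2, NODAL and WNT5B peak at D1, APLNR, CER1, MESP1 and MESP2 at D2, PDGFRA and MEIS2 keep higher values later, and the genes of the last panel alternate between columns.

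BMP genes were higher or within 2-fold. Of 22 kept, 9 were higher, against 2.55% of all kept genes, none was lower, and the median was 0.61. BMP4, SMAD6, BMPER and CHRD are among those that passed the minimum through their D2 value alone, so the filter helps set this count. BMP4, the ligand, was at 3.81 FPKM at D1, 18.4 at D2 and 42.5 at D3 (2.01 at D2). The response genes ID1 (37.0 and 205), ID3 (133 and 338) and ID4 (6.99 and 28.6), which encode inhibitors of bHLH factors, were higher, as were the feedback inhibitors SMAD6 (2.59 and 10.7) and BAMBI (19.8 and 55.8). Secreted BMP binders were higher too: BMPER at 1.06 and 11.0 and CHRD at 0.963 and 7.06. BMP2 (15.4 and 19.6), the receptor BMPR1A (62.2 and 73.8) and SMAD1 (13.6 and 13.8) lay within 2-fold, and BMP7 was at 9.69 and 5.38 (-0.75). ID1 was at 60.6 FPKM in hESC, so its D1 value was a low point; ID3, at 27.3 in hESC, had no such dip.

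None of 13 kept receptors and ligands of early mesoderm was lower, and the median was 1.32. Higher were 7, against 2.55% of all kept genes. Beside APLNR and PDGFRA these were PDGFRB (2.27 and 9.78), KDR (8.92 and 26.5) and FLT1 (5.97 and 16.5), which bind VEGF, CXCR4 (2.61 and 8.03), a chemokine receptor shared with endoderm, and ROR2. KDR and FLT1 had been higher in hESC (59.4 and 14.7), so their D1 value lies between higher neighbours. KIT (5.77 and 6.79), its ligand KITLG (19.8 and 16.7) and VEGFA (30.1 and 19.9) lay within 2-fold. PDGFRA, PDGFRB and CXCR4 passed the minimum through their D2 value alone, so the filter helps set the count of higher genes.

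Mesoderm transcription factors had 11 of 14 kept members higher and 2 lower, with a median of 1.75. Another 16 of the 30 listed stayed under 5 FPKM on both days, and the 14 kept are those that reached it on at least one, so these counts do not speak for the whole list. MESP2 was at 0.207 FPKM at D1, 12.7 at D2 and 1.24 at D3 (3.50), a pulse like that of MESP1. IRX3 went from 0.398 to 21.6 (4.01), HAND1, a factor of lateral and cardiac mesoderm, from 0.174 to 9.47 (3.16), FOXC1 from 0.287 to 5.90 (2.42) and MEIS2 from 1.47 to 7.97 (1.86). HAND1 and MEIS2 had not peaked at D2: they stood at 24.6 and 19.0 FPKM at D3 and at 45.1 and 85.2 at D4. TBX3 (3.09 and 7.56), TWIST1 (3.20 and 8.83) and SMARCD3 (4.31 and 10.5) were closer to the line. EVX1 was among the lower members.

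Of 18 genes of paraxial mesoderm and the somite clock, 9 were kept, of which 5 were higher, and the other 9 stayed under 5 FPKM. Most of those kept reached the minimum only at D2, so the filter largely sets this count and the list median of 2.89. DLL3, a divergent NOTCH ligand of presomitic mesoderm, was at 5.05 FPKM at D1, 70.0 at D2, 28.9 at D3 and 1.24 at D4. RIPPLY2, which restrains MESP2 and TBX6 at somite borders, was at 0.102 and 7.86, and LFNG, the fringe enzyme of the clock, at 1.89 and 18.6. TBX6 (1.07, 9.94 and 1.25 from D1 to D3) and DLL1 (2.03, 7.12 and 1.61) were set aside since they were back at D3. At D4 DLL3, RIPPLY2, TBX6 and MESP2 were at 1.24, 0.339, 0.849 and 0.235 FPKM, so none of the 4 kept its D2 level. In the NOTCH list, 3 of 11 kept were higher, with HES1, the classic target, at 7.60 and 43.6, and 2 were lower, HES6 (75.6 and 30.3) and JAG1, whose values alternate between columns as described below. The receptors NOTCH1 (0.14), NOTCH2 (0.15) and NOTCH3 (0.25) hardly differed.

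Endoderm had 3 of 8 kept genes higher, against 2.55% of all kept genes, and none lower. SOX17, a defining factor of endoderm, was at 0.886 FPKM at D1, 10.8 at D2 and 6.45 at D3, and CER1 and CXCR4 are the other 2. SOX17 and CXCR4 passed the minimum through their D2 value alone, so the filter helps set this count. FOXA2 (13.2 and 7.22) was not higher, and 11 of the 19 listed stayed under 5 FPKM.

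**Figure D3:**
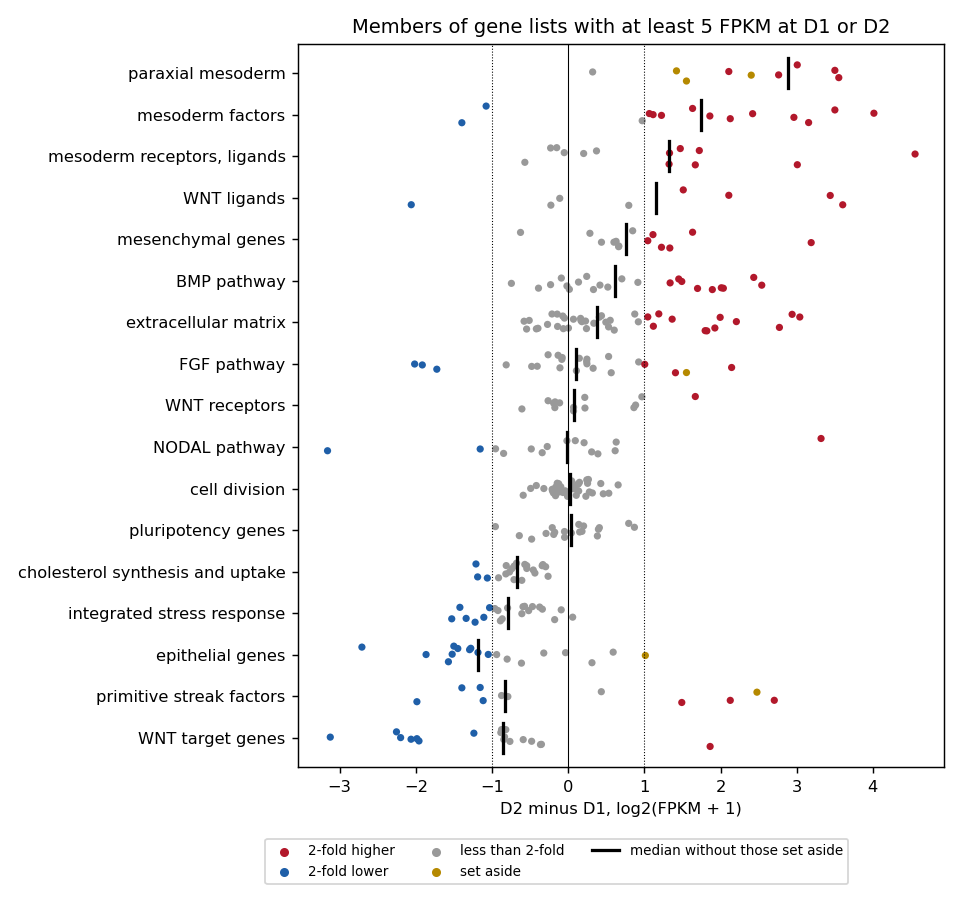
Points are the kept members of 17 gene lists, placed on the x axis by D2 minus D1 in log2(FPKM + 1), with a bar at the median of the members not set aside and dotted lines at 2-fold. Medians run from -1.18 for epithelial genes to 2.89 for paraxial mesoderm, and no cell division or pluripotency gene passes the dotted lines.

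Epithelial genes were lower as a group. Of 18 kept, 10 were lower, against 2.89% of all kept genes, none was higher, 1 was set aside, and the median was -1.18. ESRP2, GRHL2, ST14 and CRB3 passed the minimum through their D1 value alone, so the filter helps set this count. CLDN7, a claudin of tight junctions, was at 89.6 FPKM in hESC, 66.7 at D1 and 9.36 at D2 (-2.71). CDH1, which encodes E-cadherin, was lower, from 69.6 to 23.9 (-1.50), CDH3, P-cadherin, from 77.9 to 20.7 (-1.87), and EPCAM from 196 to 94.2 (-1.05). The splicing regulators ESRP1 (65.5 and 21.4) and ESRP2 (11.9 and 4.68), the transcription factor GRHL2 (12.8 and 3.79), the tight junction protein OCLN (40.2 and 15.8), the protease ST14 (5.98 and 1.56) and CRB3 (7.14 and 2.36) complete the group. CLDN6 did not follow CLDN7, at 205 and 200 FPKM, and the keratins were not lower: KRT8 was at 270, 546 and 254 from D1 to D3 and was set aside, KRT18 at 367 and 456, KRT19 at 109 and 165.

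On the mesenchymal side 6 of 14 kept genes were higher, against 2.55% of all kept genes, and none was lower, with a median of 0.76. SNAI2, SNAI1 and ZEB1 are among those that passed the minimum through their D2 value alone, so the filter helps set this count. SNAI2 was at 0.568 FPKM at D1 and 13.3 at D2 (3.19), SNAI1 at 4.36 and 15.6 (1.63), ZEB1 at 1.85 and 6.19 (1.33). The filament protein VIM went from 162 to 352 and then 775 at D3. CDH2, which encodes N-cadherin, had its step earlier, with 9.89 FPKM in hESC, 53.9 at D1 and 85.9 at D2 (0.66), and ZEB2 likewise with 0.963, 18.9 and 23.2 (0.29). The larger step of CDH2 was thus from hESC to D1, and that of SNAI2 from D1 to D2.

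The extracellular matrix list had 12 of 40 kept genes higher, against 2.55% of all kept genes, none lower and a median of 0.37. HAPLN1, TNC, COL5A1 and COL5A2 are among those that passed the minimum through their D2 value alone, so the filter helps set this count. HAS2, the enzyme that makes hyaluronan, was at 0.760 FPKM in hESC, 15.2 at D1 and 110 at D2 (2.77). HAPLN1, which links hyaluronan to proteoglycans, followed from 0.912 to 14.7 and to 142 at D3. TNC (4.56 and 41.7), an adhesion-modulating glycoprotein, the fibrillar collagens COL5A1 (3.45 and 19.5) and COL5A2 (3.64 and 17.5), and the fibronectin receptor subunit ITGA5 (11.9 and 44.0) were higher too. FN1 was at 73.6 and 100 (0.44), and laminins such as LAMB1 (52.3 and 50.0) lay near equality. Among 30 ephrin, semaphorin, netrin and slit genes kept, 6 were higher, against 2.55% of all kept genes, and none lower. They were PLXNA2 (1.65 and 29.2), SEMA6D (0.276 and 11.2), EFNB1 (6.53 and 58.0), EPHB3 (1.38 and 15.5), SLIT2 (7.61 and 31.2) and SEMA3A (16.6 and 34.6). PLXNA2, SEMA6D and EPHB3 passed the minimum through their D2 value alone, so the filter helps set this count too. SEMA3C (21.2, 5.28 and 15.8 from D1 to D3) and NTN1 (2.50, 7.49 and 3.82) were set aside.

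Among 24 FGF pathway genes kept, 3 ligands were lower and 2 receptors and ETV5 were higher. FGF8, a ligand known to be needed for cells to leave the streak, was at 15.9 FPKM at D1 and 3.18 at D2 (-2.02), FGF18 at 6.07 and 0.875, and FGF19 at 16.4 and 4.27. FGFR3 (4.65 and 24.0) and FGFR2 (7.44 and 21.4) were higher, after 19.1 and 40.5 FPKM in hESC. ETV5 (7.70 and 16.5), a target of ERK signalling, sat just inside the line at 1.01, and DUSP6, an ERK phosphatase, was at 26.1, 78.4 and 33.6 from D1 to D3 and was set aside. FGF4 (7.03 and 10.9), FGF2 (16.7 and 20.0) and SPRY4 (26.3 and 50.9) lay within 2-fold. The receptors FGFR1 (114 and 165) and FGFR4 (23.7 and 19.5) lay within 2-fold too, and the list median was 0.11. FGF8, FGF18 and FGF19 passed the minimum through their D1 value alone, and FGFR3 through its D2 value alone. The filter thus helps set the counts of this list.

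In the retinoic acid list, 3 of 10 kept were higher, against 2.55% of all kept genes. CYP26A1 and RXRG passed the minimum through their D2 value alone, so the filter helps set this count. CYP26A1, which degrades retinoic acid, showed a D2 pulse of 3.20, 29.9 and 1.23 FPKM from D1 to D3. RXRG, a retinoid receptor, was at 0.140 and 8.22, and CRABP1, a binding protein, at 32.0 and 68.4.

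Pluripotency genes did not reach 2-fold in either direction. Of 19 kept, 9 lay below 0, and the median was 0.04. POU5F1 was at 720 FPKM at D1 and 588 at D2, LIN28A at 653 and 631, SOX2 at 37.8 and 49.6. NANOG came closest to the line, at 89.2 and 45.5 (-0.96), with 4.81 at D3. Cell division genes (38 kept, median 0.02, range -0.59 to 0.66) and glycolysis genes (26 kept, median -0.01) held no 2-fold difference.

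Cholesterol genes shifted together by less than 2-fold. All 21 kept lay below 0, from -1.21 to -0.26, with a median of -0.68, and 3 passed the line: CYP51A1 (422 and 182), INSIG1 (98.3 and 42.6) and MVD (235 and 112). HMGCS1 was at 446, 272 and 40.0 FPKM from D1 to D3. The integrated stress response list was alike, with 20 of 21 below 0, a median of -0.80 and 6 lower genes. TRIB3 was at 28.4 and 9.17, ATF5 at 30.9 and 10.9, STC2 at 30.9 and 11.6, and the amino acid carriers SLC7A5 at 347 and 148 and SLC7A11 at 53.7 and 24.4. ATF4, the factor at the head of the response, was at 370 and 327 (-0.18). Heat shock and immediate early genes (21 kept, median 0.06) had none past 2-fold.

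Beyond the lists, 135 higher and 165 lower protein-coding genes remained. NTS, the precursor of the peptide neurotensin, was at 43.4 FPKM at D1, 592 at D2 and 247 at D3. SAMD3 (1.36 and 27.8), COL13A1 (1.28 and 23.4), a transmembrane collagen, and ANPEP (0.424 and 12.9), a surface aminopeptidase, were among the 15 largest increases too. PAICS, an enzyme of purine synthesis, was listed at 0 at D1 between 239 FPKM in hESC and 313 at D2, so no fold is given. Among protein-coding genes not set aside, the largest decrease was that of SEPN1, at 5082 FPKM in hESC, 315 at D1, 16.3 at D2 and 1255 at D6. Its exons overlap other annotated genes, as do those of 44.6% of the lower and 50.4% of all kept protein-coding genes. TTC29 (26.7 and 2.05), PCSK1 (23.7 and 2.88), a prohormone convertase, NEFL (23.4 and 3.41), a neurofilament subunit, ACSL1 (38.3 and 6.14), which activates fatty acids, and LCP1 (37.3 and 6.15), an actin bundler, shared a D1 peak over hESC. MACC1 (12.5 and 1.67), FAM167A (15.5 and 2.35) and F11R (100 and 18.6), a junction adhesion molecule, complete the 15 with MT1H, GALT and genes given above. At the line, MRC2 (6.01 and 13.0 FPKM) and ETV5 were just inside and ANXA6 (43.5 and 87.8) and ISG15 (6.05 and 13.0) just outside on the higher side. On the lower side LPIN1 (19.1 and 9.05) and RASGEF1A (12.1 and 5.55) were just inside, and CPT1A (10.3 and 4.64) and ANKRD18B (5.36 and 2.19) just outside.

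The time points at which these genes were highest are given as a description, since the choice by D2 against D1 keeps higher genes from being highest at D1 and lower genes from being highest at D2. Of the 207 higher genes, 52 had their highest value at D2 itself, 27 at D3, 28 at D6 and 35 in cardiomyocytes. Of the 202 lower genes, 117 were highest at D1 and 60 in hESC. The lower set holds genes like T and AXIN2, highest at D1, beside genes like CLDN7 that were high already in hESC.

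The sorts of D3 and D4 cells came from other libraries and give the same genes in separated cells. Per the labels, ROR2-positive D3 cells (PMESO) were set against ROR2-negative ones, and ROR2-positive D4 cells positive for PDGFRa (CMESO) against those negative for it. The authors' deposited tables list only genes with a q-value under 0.05, so a gene that is not listed was not necessarily equal. In the authors' deposited table of the D3 sort, 14.7% of the 9922 kept protein-coding genes were higher in ROR2-positive cells and 11.7% in ROR2-negative cells. For the 207 genes higher at D2 these shares were 66.2% (137 genes, or 9.38% of all kept genes on that side) and 14.5% (30 genes). For the 202 genes lower at D2 they were 13.9% (28) and 42.6% (86, or 7.44% of that side). At D4 the authors' deposited table has 12.6% of kept genes higher in PDGFRa-positive cells and 13.7% in PDGFRa-negative ones, against 44.0% (91) and 25.1% (52) of the genes higher at D2 and 13.9% (28) and 40.1% (81) of those lower.

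By group, the D3 sort separated the lower genes. Of the 10 lower epithelial genes, 9 were listed, all higher in ROR2-negative cells, and CDH1 stood at 58.8 FPKM there against 13.6 in ROR2-positive cells in the authors' deposited table. All 5 listed genes of the lower stress response members were on that side too. The lower WNT targets were on the other: 5 of 7 were listed, all higher in ROR2-positive cells, with DKK1 at 9.11 and 143 FPKM and AXIN2 at 6.14 and 23.6 in the authors' deposited table. All 4 lower streak factors were likewise higher in ROR2-positive cells. In the D3 sort, genes of these lists that were lower at D2 thus lay on opposite sides, with T counted in 2 lists. In the D4 sort, 1 listed lower streak factor was higher in PDGFRa-positive and 2 in PDGFRa-negative cells. For lower WNT targets these counts were 1 and 1, and for lower epithelial genes 1 and 8.

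Higher genes were mostly on the ROR2-positive side, with exceptions. All 11 higher mesoderm factors, all 6 higher mesenchymal genes and all 11 listed matrix genes were on it. In the authors' deposited table APLNR was at 2.21 FPKM in ROR2-negative and 119 in ROR2-positive cells, CER1 at 1.16 and 62.7, and HAPLN1 at 5.85 and 212. WNT8A (24.8 and 9.38), FLT1 (49.2 and 24.4), SEMA3A (50.7 and 12.1), FGFR2 (57.2 and 29.7), ID1 (591 and 437) and ID4 (165 and 118) were higher in ROR2-negative cells in the authors' deposited table. The D4 sort split ROR2-positive cells by PDGFRa, so its sides are not those of the D3 sort. SOX17 and CXCR4, 2 of the 3 higher endoderm genes, were higher in ROR2-positive cells at D3 and in PDGFRa-negative cells at D4. In the authors' deposited tables SOX17 was at 0.664 and 12.5 at D3, then at 10.1 and 2.30 in PDGFRa-negative and PDGFRa-positive cells. CXCR4 was at 2.90 and 9.66, then at 15.1 and 2.41, in the authors' deposited tables. At D4, 2 of 9 listed higher mesoderm factors and 2 of 10 listed higher matrix genes were also higher in PDGFRa-negative cells. TBX3, for example, was at 4.19 and 29.2 at D3, then at 45.8 and 21.4, in the authors' deposited tables. CER1 was higher in PDGFRa-positive cells at D4, at 0.755 in PDGFRa-negative and 2.82 in PDGFRa-positive cells in the authors' deposited table. ROR2 and PDGFRA chose the cells, so their own values there are no finding.

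**Figure D4:**
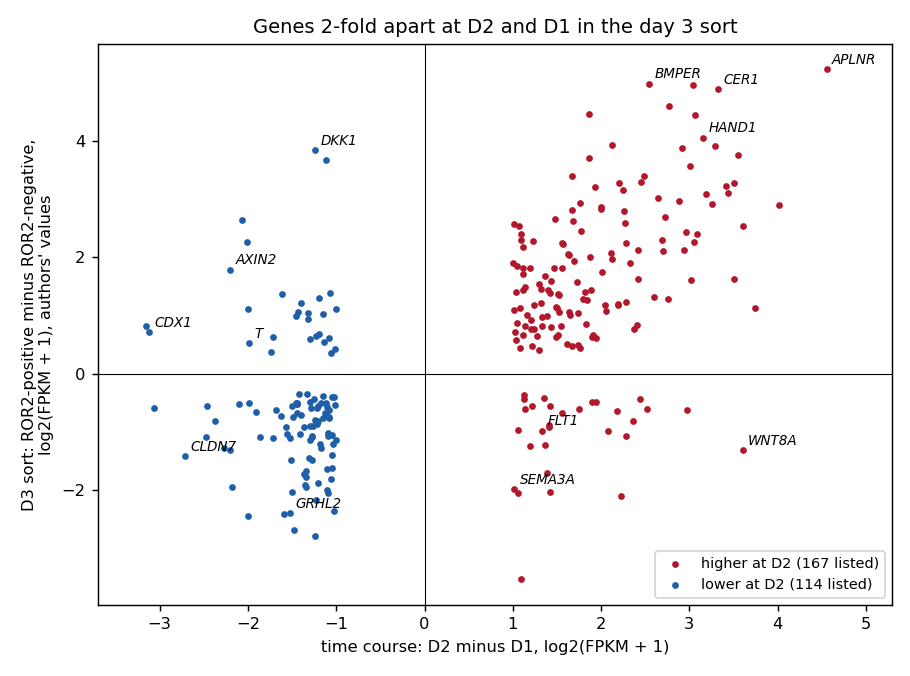
Points are the 167 higher and 114 lower protein-coding genes that the table of the D3 sort lists, with D2 minus D1 on the x axis and ROR2-positive minus ROR2-negative cells on the y axis, both in log2(FPKM + 1). Of the higher genes 137 lie above 0 on the y axis, and of the lower genes 86 lie below it, while DKK1, AXIN2 and T lie above.

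Markers of other cell types differed by list. None of 14 blood genes reached 5 FPKM on either day, their summed value was 6.77 FPKM at D1 and 7.75 at D2, and HBG1 was listed at 0. Of 20 amnion, trophoblast and surface ectoderm genes, TFAP2C (2.92 and 5.70) was the 1 kept, the sums were 12.8 and 19.0, and CGB5 and XAGE2 were listed at 0. Among 14 endothelial genes, KDR, which mesoderm also expresses, and EGFL7 (12.9 and 16.4) were kept. Of 14 smooth muscle and fibroblast genes, 6 were kept and PDGFRB, given above, was higher; the sums were 511 and 791 FPKM, of which TAGLN, an actin-binding protein, held 316 and 508, while ACTA2 (0.559 and 0.856) and LUM (0.128 and 0.104) were low. Of 10 primordial germ cell genes, 5 were kept and SOX17 was higher, ALPL was at 72.4 and 60.5 and PDPN at 28.8 and 34.1, while NANOS3 (0.159 and 0.173) and DDX4 (0.0139 and 0.0824) were low. The part of these markers in the differences above was not tested. Neural genes had 4 of 16 kept and none higher or lower, with FABP7 at 49.8 and 28.3 and TUBB3 set aside. In the heart and striated muscle list, 7 of 20 were kept and MYL7 (12.1 and 25.4) and TNNC1 (9.20 and 20.7) were higher; DES (0.890, 9.47 and 1.02 from D1 to D3) was set aside. Of 42 HOX and CDX genes, 39 stayed under 5 FPKM.

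The genes set aside include D2 pulses such as TBX6 and OTX2, and others that go back and forth along the whole table. Across the 11 time points, 33 genes had D2, D4, D6, D10 and cardiomyocytes all at least 2-fold below (28 genes) or above (5 genes) every other column, an order that does not follow time. D1 and D2 fall in different sets of columns. PSMA1, a proteasome subunit, was at 158 FPKM in hESC, 194 at D1, 0.884 at D2, 170 at D3 and 0.290 at D4, and TUBB3 at 0.0848, 190, 0.0433 and 162 from D1 to D4. SDHD (93.4, 0.397 and 71.9 from D1 to D3), NDUFB8 (128, 1.54 and 135) and CKS1B (261, 0 and 225) behave alike. Of these 33 genes 25 were among those set aside, and 5 were still counted as higher or lower, of which JAG1 and GALT are the protein-coding ones. JAG1 was at 12.3, 0.599, 19.5 and 0.187 FPKM from D1 to D4. F11R (59.1, 10.9 and 60.7 from D3 to D5) and LHX1 (2.01, 8.06 and 2.89) have a weaker form of the same order and were counted. Of the 25 protein-coding genes of this kind that were kept, 24 (96.0%) overlap an exon of another gene in GENCODE release 29, against 50.4% of all kept protein-coding genes, 36.2% of the higher, 44.6% of the lower and 60.5% of those set aside; the part of overlap in this pattern was not tested.

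**Figure D5:**
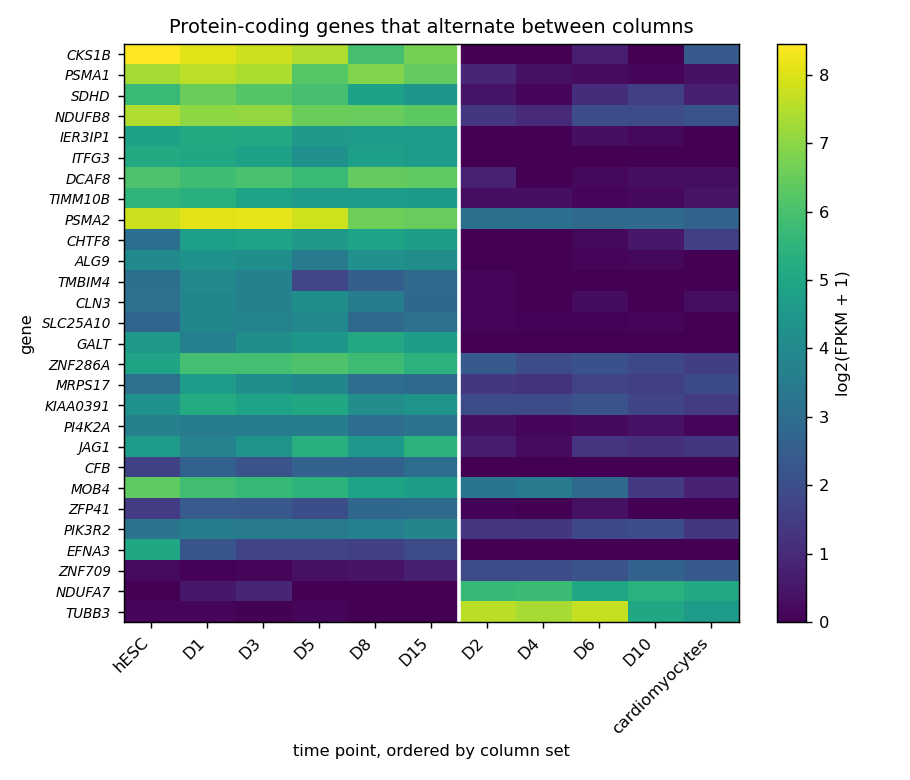
Rows are the 28 protein-coding genes that alternate between columns, and columns are the 11 time points ordered by column set, coloured by log2(FPKM + 1). D2 stands with D4, D6, D10 and cardiomyocytes, apart from D1; NDUFA7, TUBB3 and ZNF709 are high in the set of D2 and the other genes are low in it.

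Small RNAs account for much of the remaining count. Of 208 small RNA genes kept, 52 were higher, 61 lower and 51 set aside, and many were listed at exact 0 on 1 of the days. RNA5SP180 was listed at 2763 FPKM at D2 and at 0 in every other column, and SNORA48 at 17121 in hESC, 1856 at D1 and 0 from D2 on. RN7SK, RMRP and SNORD3A, abundant structural RNAs, were at 6041, 10836 and 2142 FPKM at D1 and at 25276, 36192 and 16224 at D2. Small RNAs held 13.5% of summed FPKM at D1 and 24.2% at D2, and protein-coding genes 78.7% and 65.6%, which are not shares of reads. Their part in the differences of other genes was not tested; dividing each column by its summed protein-coding FPKM left 291 genes higher and 302 lower.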

How the data were processed

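RNA of 22 time-course libraries and 8 libraries of sorted cells was sequenced as read pairs of 100 nt after removal of ribosomal RNA from 500 ng of total RNA and 10 PCR cycles, per the labels' protocols. Per the submitters' processing notes, the tools were Bowtie2 2.1.0.0 and TopHat2 2.0.8b, then Cufflinks without a version, on build hg19; which annotation, strand setting or scaling was used is not given in the sources used here. The deposited time-course values were read as FPKM from those tools and the values, since the header gives no unit. The sort tables hold, per the file headers, the authors' FPKM of each population, the ratio and its log2, p-values with their q-values, and a score, the test statistic. Only FPKM and q-values of the sorts were used. Total read counts are not in these tables, so depth is unknown and no interval is given.

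Differences, calls and counts were computed with Python 3.11.15, pandas 2.3.3 and numpy 2.4.6, with a pseudocount of 1, a minimum of 5 FPKM, a 2-fold threshold and a return limit of 0.5 in log2 units. The code was tested on simulated data. Entries whose name occurs more than once (4) were left out. Gene types came from GENCODE 29 by name and, failing that, from RefSeq names and older names; 94.7% of kept genes had one. Exon overlap is that of GENCODE 29, another build, with no coordinates printed. Promoters and motifs came from RefSeq on GRCh38.p14. A list is described by counts and by the median of members kept and not set aside. Members and the 33 lists were chosen with earlier results of these data known. Genes named are the 15 largest increases and decreases among protein-coding genes, up to 5 among other types and those set aside, the 3 markers, and list members. Alternatives were other pseudocounts, minimums, thresholds, scalings and return limits. Values of some list members are not reported here.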

Additional observations from a re-analysis of the deposited data

How the results depend on the processing

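Each time point has 1 value, so no spread, test or interval can be given, and low genes rest on an unknown depth. No paired analysis was possible because the table merges both libraries of each day; leaving out a library and a replicate block were not run for the same reason. Against 279 genes higher and 316 lower at D2, a pseudocount of 5 gave 172 and 171, a 1.5-fold threshold 577 and 760, and a 3-fold threshold 163 and 125. A minimum of 1 FPKM and no minimum each gave 425 higher and 436 lower genes. Protein-coding genes alone gave 207 and 202. The other settings stayed within 1.5 times of both counts: pseudocount 0.1 (340 and 363), a minimum of 10 FPKM (199 and 229), D2 rescaled by the median ratio (325 and 278), columns divided by summed protein-coding FPKM (291 and 302), none set aside (383 and 360), other return limits (239 to 309 and 277 to 336), and genes above 0 in both columns (267 and 253). Lower genes outnumbered higher ones in the main count, and the order turned with a pseudocount of 5, a 3-fold threshold, protein-coding genes alone, scaling by the median ratio, none set aside and genes above 0 in both columns. Leaving out the alternating genes (278 and 312) or small RNAs (227 and 255), both chosen after seeing the data, stayed close too. Of 592 values of named genes under 4 alternatives, 28 crossed the 2-fold line, 24 of them with a pseudocount of 5, and none of the 2-fold ones changed sign. Of 351 list medians, 15 shifted by 0.5 or more, and that of the HOX and CDX list turned to 0.011 with no minimum. Sort counts with q-values under 0.01 were 131 and 25 for higher genes and 24 and 76 for lower genes, in ROR2-positive and ROR2-negative cells.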

Other observations

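2 gene families outside the lists stood out among the lower genes; they were chosen after their values were seen, and all members in the table were then read. Metallothioneins, small proteins that bind zinc and copper, had 5 of 11 members kept, and these 5 were lower at D2. MT1E, MT1G, MT1H and MT2A passed the minimum through their D1 value alone, so the filter largely sets this count. MT1X was at 61.5 FPKM in hESC, 34.2 at D1, 11.7 at D2 and 3.05 at D3. MT1H went from 10.5 to 0.216, MT1G from 10.0 to 1.27, MT2A from 5.73 to 0.951 and MT1E from 5.49 to 0.932. At D4 the same genes were higher again, with MT1G at 85.2, MT1E at 53.2 and MT2A at 49.9 FPKM. These genes are near-identical copies, among which the authors' counting could split reads, so single members are uncertain. The 5 kept members shared the lower D2 value but not the whole course. From hESC to D1, MT1X went down from 61.5 to 34.2 FPKM, while MT1H went up from 2.08 to 10.5 and MT1G from 4.04 to 10.0.

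Acyl-CoA synthetases, which activate fatty acids and acetate, had 5 of 8 members kept, 3 lower and 1 set aside. ACSL4 was at 235 FPKM at D1, 96.7 at D2 and 33.4 at D3, ACSS2 at 128, 46.2 and 9.28, and ACSL1 at 38.3, 6.14 and 1.98. ACSL3 (98.4 and 65.1) lay within 2-fold, and ACSS3 (9.97, 22.7 and 14.1 from D1 to D3) was set aside.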
